A study of Mus musculus with 35 samples.

Results

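The comparison is between 2 sets of unmutated control mice from one study of the mouse hypothalamus: the control libraries with title numbers 1 to 5 and those with title numbers 6 to 10, in each of 2 feeding states. The 20 control libraries (of 35 in the study) were chosen by these numbers alone. All were labelled male, strain B6/J, genotype Control, called wild type in the study's design text. They were 5 fed controls numbered 1 to 5 and 5 numbered 6 to 10 (Ctrl.AL, fed ad libitum), and 5 fasted controls numbered 1 to 5 and 5 numbered 6 to 10 (Ctrl.Fast, fasted for 16 h, from ZT0 to ZT16). ZT is time after lights on, and every sample was labelled ZT16. The labels do not say what the title numbers mean, which litter, cage or colony the mice came from, or their age. The other 15 libraries (fasted Per2 knockout, ko.Fast, and fed and fasted PER2-S662D, S662D.AL and S662D.Fast, 5 each) are used here only to show their levels of a few genes.

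The hypothalamus holds many small groups of neurons that release peptides to regulate feeding, stress hormones, body temperature and daily rhythm, together with glia. Fasting raises appetite-driving peptides in its arcuate nucleus, and stress hormones (glucocorticoids) induce a well-known group of genes in neurons and glia alike. Each library came from one dissected block of tissue read as polyA RNA, so a difference in a cell type's genes cannot be told apart here as fewer cells or less RNA per cell. Between mice of one inbred strain, expression can also differ through sequence variants and copy number carried by a colony, and a list of genes known to vary between mouse strains was included.

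Total counts per control library ran from 17959586 to 22036714, and 17655 of 49568 gene names passed the count filter. The groups followed the library numbers in the file headers: fed 1 to 5 had numbers 121 to 125 and fasted 1 to 5 had 126 to 130. Fed 6 to 10 had 141 to 145 and fasted 6 to 10 had 146 to 150. Set, library range and any difference in handling therefore cannot be told apart. Each group also had its own run of numbers. Feeding state within a set, and the difference in response between the sets, therefore cannot be told apart from library range either. Ttr, the transthyretin gene that marks choroid plexus, was above 500 CPM (counts scaled to a common library size, with TMM factors) in 3 libraries: fed 2 at 892, fasted 8 at 1440 and fasted 9 at 1250. The share of counts from mitochondrial genes was 7.72% ± 0.59 in fasted 1 to 5, 6.96% ± 0.19 in fasted 6 to 10, 7.10% ± 0.21 in fed 1 to 5 and 7.00% ± 0.26 in fed 6 to 10 (mean ± SD, n = 5 each). All differences below are controls 6 to 10 minus controls 1 to 5 on the log2 scale with their standard error, and each adjusted p comes from edgeR (quasi-likelihood F-test), corrected by Benjamini-Hochberg over all 17655 genes.

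With feeding state as a term, few genes parted the 2 sets. The test called 32 genes (0.181% of those tested) at an adjusted p under 0.05, with 15 higher (0.085%) and 17 lower (0.0963%) in controls 6 to 10. The median size of the called differences was 0.284, and 1630 genes (9.23%) had an unadjusted p under 0.05. Of the 17 lower genes 4 were copies of the Fam205a family and 6 were predicted genes with Gm numbers. For 3 of the 32 genes the difference between the sets was also called as unlike in fed and fasted mice. The mean of the fed and fasted differences from 4 group means, a second way to ask the same question, gave 69 genes (0.391%), 31 higher (0.176%) and 38 lower (0.215%). With all 35 libraries in the fit, this mean of the 2 differences gave 0 genes. The count of 32 rested on single libraries: it was 0 without fed 1 or without fasted 6, and 103 without fasted 10.

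Nrip3, nuclear receptor interacting protein 3, was at 220, 211, 247, 236 and 218 CPM in fed 1 to 5 and at 271, 253, 249, 252 and 255 in fed 6 to 10. In fasted mice it was at 216, 227, 218, 212 and 228 in 1 to 5 and at 270, 251, 236, 256 and 245 in 6 to 10. Every library of controls 6 to 10 was above every library of 1 to 5 in its feeding state. Nrip3 rose by 0.19 ± 0.03 (adjusted p = 0.0183). Stum, a membrane protein first described in mechanosensation, was at 244, 217, 259, 237 and 234 CPM in fed 1 to 5 and at 267, 268, 265, 280 and 285 in fed 6 to 10. Fasted, it was at 204, 213, 220, 223 and 208 in 1 to 5 and at 251, 236, 222, 243 and 247 in 6 to 10. The fed groups did not overlap, and the fasted groups overlapped only through fasted 4 and fasted 8. Stum rose by 0.18 ± 0.03 (adjusted p = 0.0183). The calls of Nrip3 and Stum were each lost without fed 1 and without fasted 6.

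P2ry12, the purinergic receptor of resting microglia, was the 1 microglial marker of 13 called with feeding state as a term. It was at 20.6, 17.4, 20.3, 19.9 and 20.6 CPM in fed 1 to 5 and at 23.5, 24.2, 21.5, 22.2 and 25.1 in fed 6 to 10. It was at 17.3, 15.7, 14.5, 13.1 and 16.5 in fasted 1 to 5 and at 21.1, 18.0, 17.1, 19.5 and 17.0 in fasted 6 to 10. The fed groups did not overlap, and among fasted libraries fasted 1, at 17.3, lay above fasted 8 and fasted 10. P2ry12 rose by 0.25 ± 0.05 (adjusted p = 0.0417). Sall1, a transcription factor known in microglia, rose by 0.23 ± 0.05 (adjusted p = 0.0417). The calls of P2ry12 and Sall1 were each lost without any one of 18 libraries (adjusted p up to 0.117 and 0.102). The median over the 13 microglial genes was 0.16, against 0.001 over all genes.

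Kcnab1, an auxiliary subunit of voltage-gated potassium channels, was at 60.4, 61.2, 65.2, 59.9 and 52.1 CPM in fed 1 to 5 and at 74.3, 73.5, 63.5, 70.8 and 63.7 in fed 6 to 10. In fasted mice it was at 56.9, 57.0, 53.6, 52.5 and 58.0 in 1 to 5 and at 66.1, 61.2, 67.2, 69.8 and 59.3 in 6 to 10. Fed 3, at 65.2, lay above fed 8 and fed 10, and the fasted groups did not overlap. Kcnab1 rose by 0.21 ± 0.04 (adjusted p = 0.0367). Ednrb, the endothelin receptor found mainly on astrocytes in brain, rose by 0.21 ± 0.04 (adjusted p = 0.0417), although fasted 10, at 58.8, lay among fasted 1 to 5 (57.6 to 69.5) and below the other fasted 6 to 10 (76.5 to 79.8). Prox1, a homeobox factor of neurons and lymphatic endothelium, rose by 0.19 ± 0.04 (adjusted p = 0.0417). Plxnd1, a semaphorin receptor, rose by 0.27 ± 0.06, and Adamts15, a secreted protease of the extracellular matrix, rose by 0.30 ± 0.06. Zfp612 rose by 0.17 ± 0.04 and 1810041L15Rik by 0.14 ± 0.03. The calls of Prox1, Plxnd1 and Zfp612 were each lost without any one of 18 libraries. The number was 17 for Ednrb and for 1810041L15Rik, 15 for Adamts15 and 8 for Kcnab1.

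**Figure D1:**
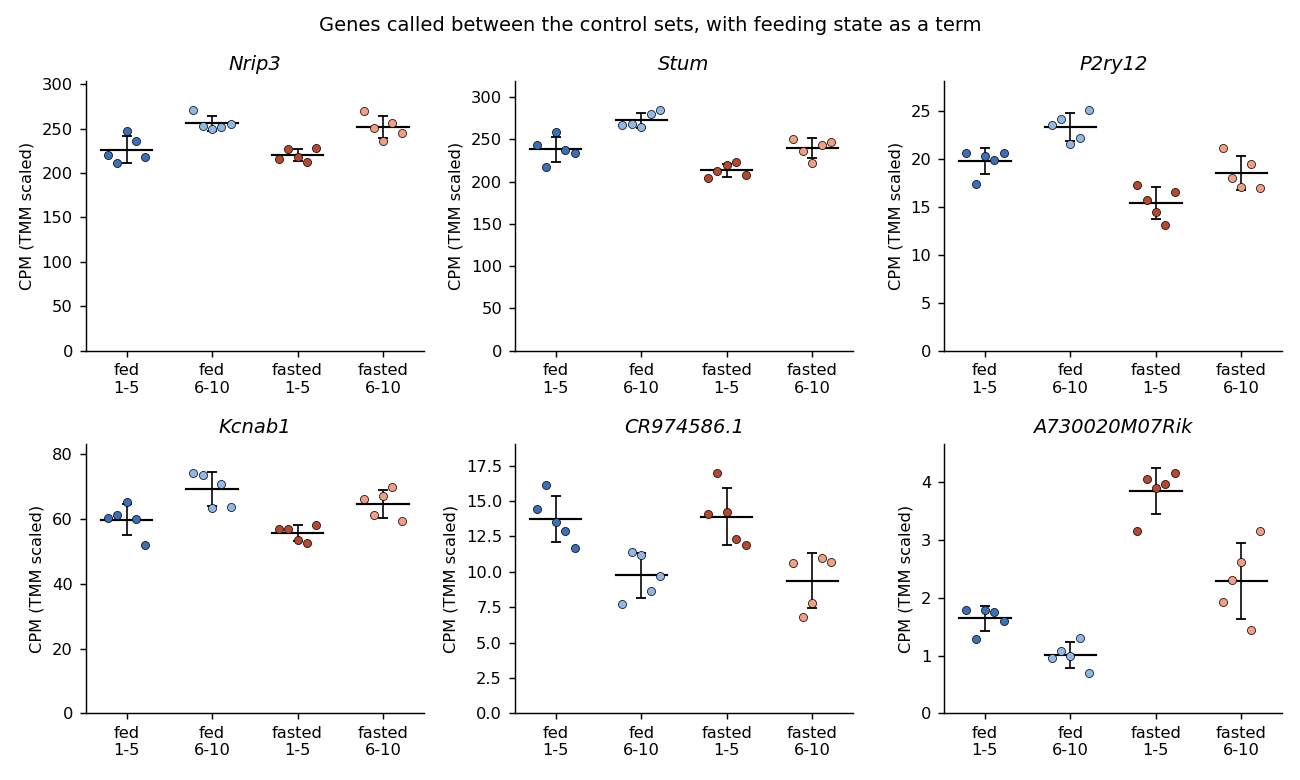
CPM of 6 genes called with feeding state as a term, by control group. Points are libraries, the line is the mean of 5 and the bar is 1 SD. Nrip3, Stum, P2ry12 and Kcnab1 are higher in controls 6 to 10 in both states, and CR974586.1 and A730020M07Rik are lower.

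Of the 17 genes that were lower in controls 6 to 10, 6 lay in one stretch of chromosome 4. Fam205a1, Fam205a2, Fam205a3 and Fam205a4 are near-identical members of one gene family, and their sequences are shown because they set how far the copies can be told apart. In the GENCODE M21 transcripts the coding sequences of Fam205a2, Fam205a3 and Fam205a4 are identical over 3924 bases, while that of Fam205a1 has 3942. Over coding bases 41 to 120 the Fam205a1 sequence differs from the others at 2 bases (T61A and C94T, the base of Fam205a2 first, counted from the first base of the start codon), in capitals here:
Fam205a1: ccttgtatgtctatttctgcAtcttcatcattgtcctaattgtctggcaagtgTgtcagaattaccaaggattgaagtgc
Fam205a2: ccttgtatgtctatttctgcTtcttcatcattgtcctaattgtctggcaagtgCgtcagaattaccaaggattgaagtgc
Because the authors counted every alignment of reads that fit several places, a read from one of the identical copies could be counted for each of them, and the counts of Fam205a2, Fam205a3 and Fam205a4 are not separate measurements.

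Fam205a2 was at 42, 47.1, 39.1, 37.7 and 35.4 CPM in fed 1 to 5 and at 23.6, 36.0, 34.9, 29.3 and 31.2 in fed 6 to 10. In fasted mice it was at 44.2, 51.0, 45.2, 39.2 and 39.1 in 1 to 5 and at 32.6, 20.7, 25.6, 36.0 and 28.1 in 6 to 10. Only fed 5, at 35.4, lay below a library of controls 6 to 10 (fed 7) in its feeding state. Fam205a2 fell by 0.49 ± 0.10 and Fam205a1 fell by 0.51 ± 0.11 (adjusted p = 0.0417 for each). Fam205a1 lies on chromosome 4 at 42848071 to 42853888, Fam205a3 at 42318334 to 42323929 and Fam205a4 at 41966058 to 41971856 (mm10). Fam205a2 was not counted among the genes of this stretch. Predicted genes of the stretch fell as well: Gm5859 by 1.04 ± 0.20, Gm17167 by 0.79 ± 0.16 and Gm3883 by 0.44 ± 0.08 (adjusted p = 0.0417 for each). All 3 share sequence with other genes.

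All 30 tested genes between Galt and Fam205c (chromosome 4, 41893278 to 42856771, mm10) had a difference below 0, with a median of -0.44 and a range of -1.15 to -0.13. Of them 6 were called lower with feeding state as a term, 1 in fed mice alone and 13 in fasted mice alone. The 11 tested genes just before this stretch had a median of -0.03 and the 9 just after it 0.03, and none of those 20 was called with feeding state as a term. Genes of this stretch share sequence and therefore reads, so the 30 are not independent measurements.

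Of the genes on unplaced scaffold JH584293.1, CR974586.1 was at 14.4, 16.1, 13.5, 12.9 and 11.7 CPM in fed 1 to 5 and at 7.76, 11.4, 11.2, 8.67 and 9.71 in fed 6 to 10. Fasted, it was at 14.1, 17.0, 14.2, 12.3 and 11.9 in 1 to 5 and at 10.6, 6.80, 7.78, 11 and 10.7 in 6 to 10. The groups did not overlap in either feeding state, and CR974586.1 fell by 0.53 ± 0.09 (adjusted p = 0.0183). CR974586.2, on the same scaffold, fell by 0.48 ± 0.10 (adjusted p = 0.0417). Neither gene was found in GENCODE M21, so sequence shared with transcripts of other genes was not assessed for them. Over all controls the highest and the lowest library of CR974586.1 were those of Fam205a2. Whether its counts are separate from those of the Fam205a copies was not tested. A730020M07Rik on chromosome 3, an RNA of low level, was at 1.28 to 1.79 CPM in fed 1 to 5 and 0.697 to 1.31 in fed 6 to 10. It was at 3.15 to 4.16 in fasted 1 to 5 and 1.44 to 3.15 in fasted 6 to 10, and it fell by 0.74 ± 0.14 (adjusted p = 0.0297). The sets overlapped slightly in fed mice, and in fasted mice the lowest of 1 to 5 and the highest of 6 to 10 met at 3.15.

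Some genes also parted the sets by their spread, whether or not their mean was called: controls 1 to 5 all lay at 1 level, and controls 6 to 10 were split between that level and another. These genes were picked by that pattern after their values were seen, so their levels are a description with no test. A gene was counted where the widest gap between neighbouring libraries over the 20 controls was at least 0.25 on the log2 scale with at least 2 libraries on each side. Such a gap was found in 199 of the 12102 genes whose mean reached 5 CPM. In 38 of them controls 1 to 5 lay at 1 level and controls 6 to 10 at both, in 20 the reverse held, and in 141 both sets were at both levels.

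Wdfy1, an endosomal adaptor on chromosome 1 (79702262 to 79776143) known to vary between mouse strains, had a gap of 0.98. It was at 27.3, 30.6, 25.2, 30.1 and 24.3 CPM in fed 1 to 5 and at 70.2, 68.6, 28.3, 24.7 and 75.4 in fed 6 to 10. In fasted mice it was at 30.6, 28.7, 32.5, 31.4 and 33.2 in 1 to 5 and at 65.5, 69.4, 29.4, 69.8 and 27.5 in 6 to 10. Thus fed 6, 7 and 10 and fasted 6, 7 and 9 were high, the other 4 of controls 6 to 10 were as low as controls 1 to 5, and no library lay between. The mean difference of 0.85 ± 0.23 was not called (adjusted p = 0.179). In the mutant libraries, rescaled together with the controls, 0 of 5 ko.Fast and 7 of 10 S662D libraries were at the high level (62.9 to 74.9 CPM, against 24.1 to 34.6 at the low level).

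Ndn encodes necdin, an imprinted regulator of neuronal growth expressed from the paternal copy in hypothalamic neurons (chromosome 7, 62346569 to 62350262). It was at 437, 399, 390, 369 and 397 CPM in fed 1 to 5 and at 602, 396, 425, 652 and 395 in fed 6 to 10. Fasted, it was at 438, 402, 418, 453 and 400 in 1 to 5 and at 636, 383, 605, 620 and 404 in 6 to 10. Fed 6 and 9 and fasted 6, 8 and 9 were high, a different selection of libraries from that of Wdfy1. The difference of 0.32 ± 0.11 was not called (adjusted p = 0.33). Of the mutant libraries 0 of 5 ko.Fast and 5 of 10 S662D were at the high level of Ndn.

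Tmem181b-ps, a transcribed pseudogene on chromosome 17 that shares sequence with other genes, was at 50.1, 81.2, 52.5, 87.4 and 50.4 CPM in fed 6 to 10 and at 99.7, 52.0, 55.0, 52.1 and 115 in fasted 6 to 10. All 10 controls 1 to 5 lay between 50.4 and 58.6. Gabra2, a GABA-A receptor subunit, was at 46.3, 45.7, 81.0, 93.6 and 45.9 in fed 6 to 10 and at 71.6, 73.5, 37.5, 37.9 and 41.1 in fasted 6 to 10. Controls 1 to 5 lay between 37.7 and 57.3 for Gabra2, the highest being fasted 5. Gm15446, which shares sequence with other genes, went the other way: it was at 24.5, 24.3, 12.6, 13.2 and 21.8 CPM in fed 6 to 10 and at 12.6, 11.1, 22.3, 22.1 and 23 in fasted 6 to 10. All controls 1 to 5 were between 21.7 and 27.6 for Gm15446, so it was the 4 low libraries (fed 8 and 9, fasted 6 and 7) that stood apart, and these same 4 were the high ones for Gabra2. Both genes lie on chromosome 5, with Gabra2 at 70957597 to 71095849 and Gm15446 at 109923400 to 109943936.

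Ide, the insulin-degrading enzyme, and Btaf1, a regulator of TATA-binding protein, lie on chromosome 19 at 37268743 to 37337852 and 36926079 to 37012752. Ide was at 63.1, 62.6, 67.5, 85.1 and 88.6 CPM in fed 1 to 5 and at 69.7, 70.9, 47.9, 50.3 and 42.7 in fed 6 to 10. In fasted mice it was at 70.0, 71.3, 71.9, 69.2 and 70.5 in 1 to 5 and at 45.0, 42.2, 43.7, 45.5 and 61.4 in 6 to 10. Fed 6, fed 7 and fasted 10 lay with or near controls 1 to 5 and the other 7 below them. The same 3 of controls 6 to 10 were the high ones for Btaf1. Btaf1 was at 36.5, 35.9, 25.4, 28.6 and 25.8 in fed 6 to 10 and at 25.6, 20.8, 28.6, 21.7 and 36.0 in fasted 6 to 10, against 34.7 to 45.4 over controls 1 to 5. Btaf1 fell by 0.50 ± 0.10 (adjusted p = 0.0417), while the difference of Ide, -0.48 ± 0.10, missed the threshold (adjusted p = 0.077). Between them on the chromosome, Cpeb3 and March5 had differences of 0.02 and 0.00, and neither was called. All 5 ko.Fast and 2 of 10 S662D libraries were at the high level of Ide (59.3 to 87.9 CPM). Of the 11 strain-variable genes tested, Btaf1 was the 1 called with feeding state as a term, and 4 were lower in fasted mice. Over all genes these shares were 0.181% called and 6.09% lower. The list was chosen with earlier results of these data known and holds Wdfy1, Ide, Btaf1 and Entpd4, so its counts are not separate from the genes described here.

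At another locus the low level covered 1 whole group. Entpd4, a Golgi and lysosomal nucleotidase, and its copy Gm21685 (Entpd4b in GENCODE M21) lie on chromosome 14, and one transcript of each is identical over 3589 bases. Entpd4 was at 61.3, 59.5, 54.4, 57.6 and 52.7 CPM in fasted 6 to 10, while the other 15 controls lay between 69.8 and 80.8. In fasted mice Entpd4 fell by 0.36 ± 0.05 (adjusted p = 2.29e-05) and Gm21685 fell by 0.38 ± 0.04 (adjusted p = 4.68e-06), the lowest adjusted p of all genes between the fasted sets. In fed mice the difference was 0.04 ± 0.05 for Entpd4, and the difference between states was -0.40 ± 0.07 (adjusted p = 0.000225). Gm16867 and Gm27177, which overlap these genes, fell in fasted mice by 0.70 ± 0.09 and 0.67 ± 0.10. Both were also called lower with feeding state as a term, by 0.39 and 0.38 (adjusted p = 0.0417 for each). Their fed differences, -0.11 and -0.13, were not called, and their differences between states were (adjusted p = 0.00158 and 0.00556). Gm16867 and Gm27177 met the rule for a gap (0.42 and 0.36), and Entpd4 and Gm21685 did not. All 5 ko.Fast libraries and 6 of 10 S662D libraries were at the higher level of Entpd4, and S662D.AL 3 and 4 and S662D.Fast 3 and 4 were at the lower one.

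**Figure D2:**
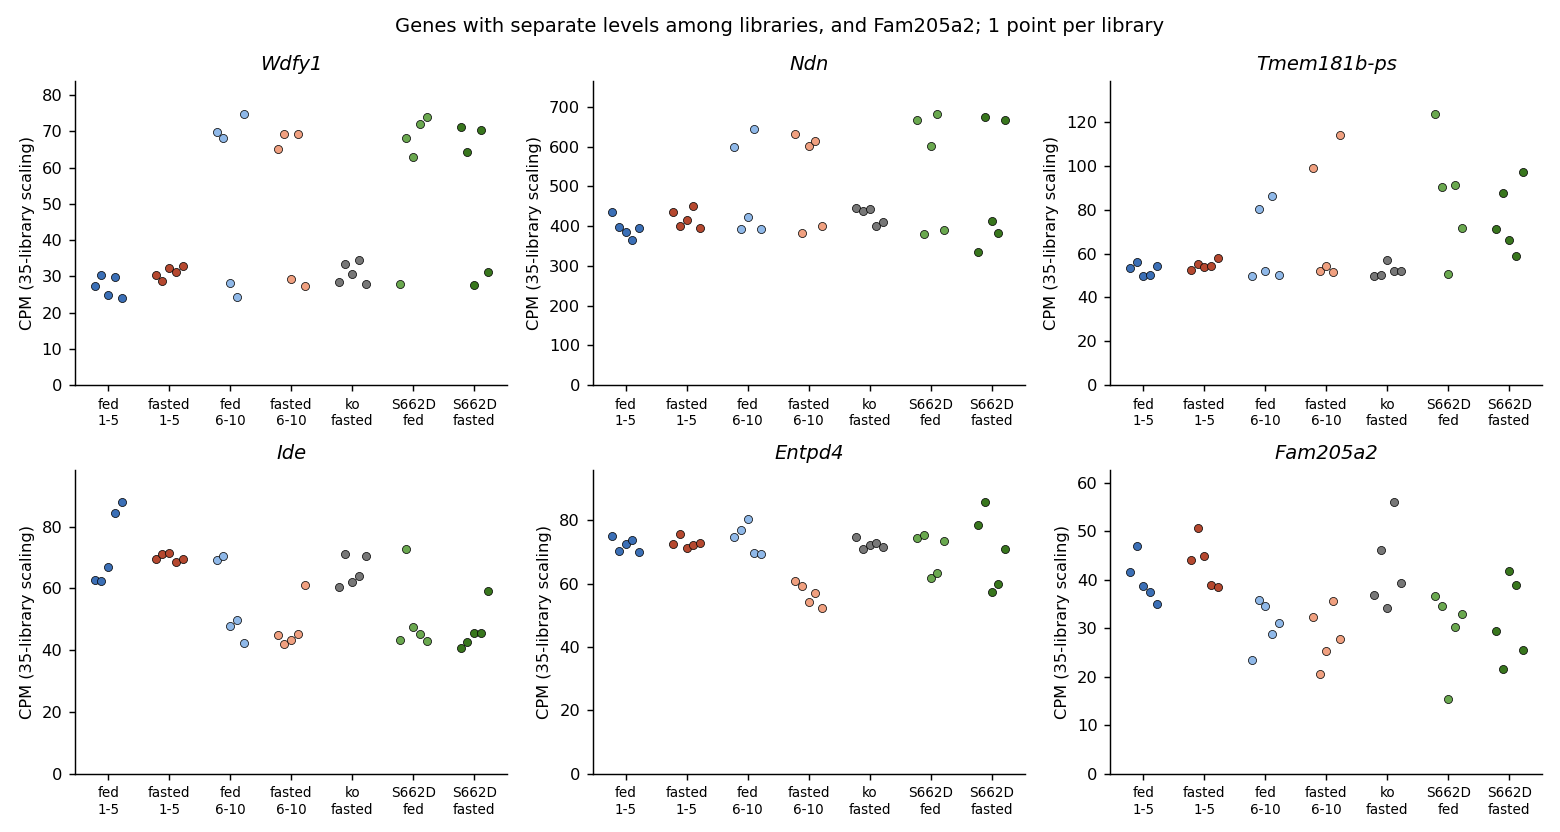
CPM, scaled over all 35 libraries, of 5 genes with separate levels among controls 6 to 10 and of Fam205a2, with 1 point per library in 7 groups. Controls 1 to 5 and ko.Fast lie at 1 level of Wdfy1 and Ndn, controls 6 to 10 and S662D at both, and S662D libraries spread from 50.8 to 124 for Tmem181b-ps.

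Within each feeding state far more genes parted the sets, and in opposite directions. Between the fed sets 367 genes (2.08%) passed, of which 164 (0.929%) were higher and 203 (1.15%) lower in controls 6 to 10. That count was 0 with all 35 libraries in the fit and 143 with an offset for exon length. Between the fasted sets 2122 (12%) passed, of which 1047 (5.93%) were higher and 1075 (6.09%) lower, and 1088 passed with all 35 libraries. The difference between these differences was called for 2956 genes (16.7%), 1535 higher (8.69%) and 1421 lower (8.05%). It is named the response to fasting here, but it cannot be told apart from the library range of each group. Scaling by library size alone changed the split of higher and lower to 203 and 144 in fed mice, 1303 and 802 in fasted mice and 1649 and 1247 for the response.

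The fed and fasted comparisons share no library. Of the 123 genes called in both states, 118 had opposite signs and 5 the same, while over all genes 62.7% had opposite signs. These 123 were 33.5% of the genes called in fed mice and 5.8% of those called in fasted mice. Called differences were small: the median size was 0.235 in fed mice, 0.222 in fasted mice and 0.317 for the response. The fed count rested on single libraries, being 3 without fed 9 and 879 without fed 10. The fasted count ran from 943 without fasted 5 to 2468 without fasted 1, and that of the response from 2126 without fed 9 to 3259 without fed 10.

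Respiratory chain subunits encoded in the nucleus carry electrons and make ATP in mitochondria. Of 81 tested, 11 were lower and 0 higher in fed mice, 23 were higher and 0 lower in fasted mice, and 58 were higher and 0 lower for the response. Their medians were -0.22, 0.17 and 0.40, against -0.002, 0.007 and 0.009 over all genes. Uqcr11, a small subunit of complex III, was at 57.5, 57.8, 63.3, 65.1 and 60.9 CPM in fed 1 to 5 and at 45.5, 40.1, 38, 26.0 and 56.1 in fed 6 to 10. It was at 50.8, 39.4, 38.7, 31.8 and 28.8 in fasted 1 to 5 and at 52.7, 53.5, 59.3, 67.4 and 62.0 in fasted 6 to 10. Neither pair of groups overlapped, and the order of the sets was reversed between the states. The response of Uqcr11 was 1.2 ± 0.23 higher in controls 6 to 10 (adjusted p = 0.00287), that of the complex I subunit Ndufb11, which shares sequence with another gene, 0.61 ± 0.10 (adjusted p = 0.000332) and that of the complex III subunit Uqcrh 0.38 ± 0.09 (adjusted p = 0.00688). Leaving out 1 library gave 53 to 62 response genes of this class, but 0 fed genes without fed 4, 7 or 9, and 42 without fed 10. The fasted count was 9 without fasted 5 and 35 without fasted 1.

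Cytosolic ribosomal proteins moved the same way. Of 86 tested, 7 were lower and 0 higher in fed mice, 12 were higher and 0 lower in fasted mice, and 59 were higher and 0 lower for the response, with medians of -0.18, 0.15 and 0.32. Rps9, a protein of the small subunit, was at 208 to 215 CPM in fed 1 to 5 and at 155 to 206 in fed 6 to 10, without overlap. It was at 157 to 204 in fasted 1 to 5 and at 197 to 216 in fasted 6 to 10, where fasted 1 at 204 lay inside the range of 6 to 10. The response of Rps9 differed by 0.46 ± 0.09 (adjusted p = 0.00103), that of Rpl22 by 0.37 ± 0.08 (adjusted p = 0.00206) and that of Rps28 by 0.94 ± 0.26 (adjusted p = 0.0202). The response count ran from 45 without fasted 9 to 66 without fed 10, while the fasted count fell to 0 without fasted 5 or fasted 9. Of 77 mitochondrial ribosomal proteins, 31 were called higher and 0 lower for the response, with a median of 0.22, and 20 were higher without fed 9. Of 31 proteasome subunits 9 were higher and 0 lower for the response, beside 8.69% and 8.05% of all genes.

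The summed level of the 81 respiratory chain genes was 11294 ± 382 CPM in fed 1 to 5, 9986 ± 763 in fed 6 to 10, 9993 ± 472 in fasted 1 to 5 and 11162 ± 535 in fasted 6 to 10 (mean ± SD, n = 5 each). That of the 86 cytosolic ribosomal proteins was 15192 ± 371, 13480 ± 1103, 13612 ± 838 and 14942 ± 976 CPM in the same order. Fed 1 to 5 and fasted 6 to 10 were thus the high groups for both classes. Their members have short transcripts, and gene length moved with these differences. In the 10% of genes with the shortest exons (median 724 bases) the median difference was -0.118 in fed mice and 0.096 in fasted mice, and in the 10% with the longest (median 11172 bases) it was 0.067 and -0.093. By GC content the lowest 10% of genes had medians of 0.043 in fed and -0.116 in fasted mice, and the highest 10% had -0.054 and 0.099. With an offset for exon length in the fit, the response was called higher for 40 of the 81 respiratory chain genes and 28 of the 86 ribosomal proteins, and with offsets for length and GC content for 35 and 21. The part of transcript length in these differences was not tested beyond these offsets.

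**Figure D3:**
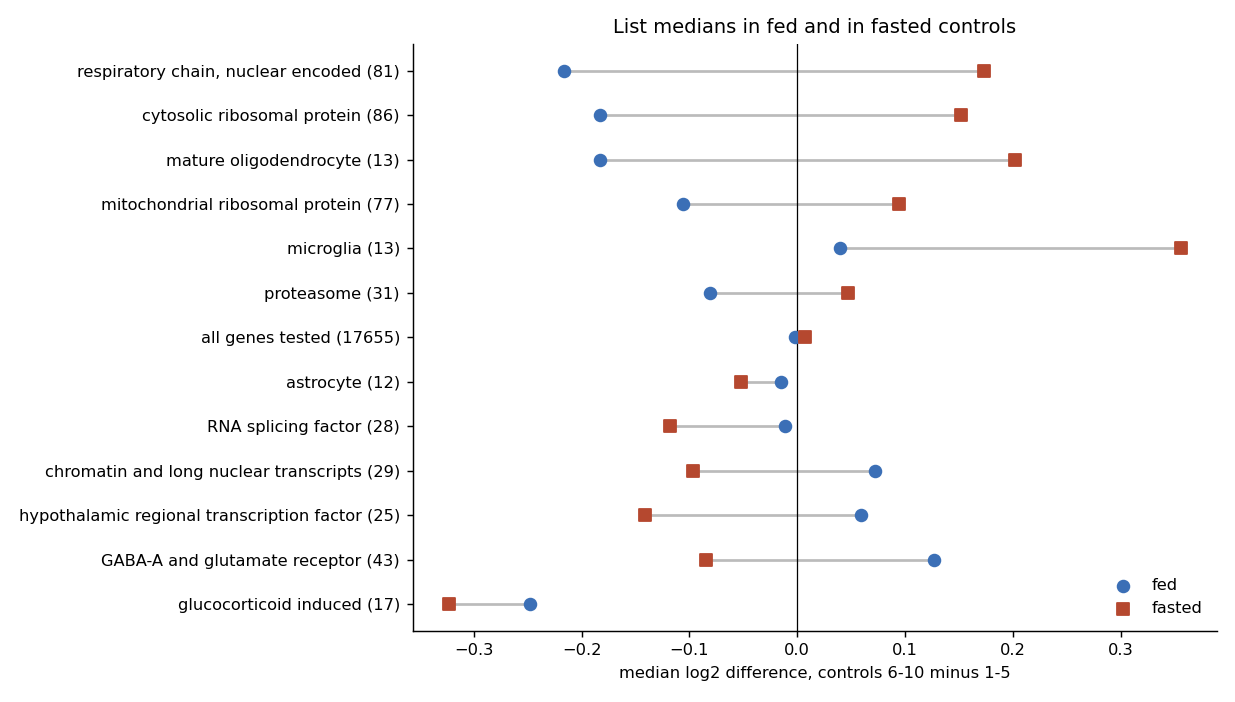
Median log2 difference (controls 6 to 10 minus 1 to 5) of each gene list in fed mice (circles) and fasted mice (squares), with the number of genes tested in brackets. Respiratory chain, ribosomal and oligodendrocyte lists lie below 0 in fed and above 0 in fasted mice, and GABA-A and glutamate receptors the reverse.

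**Figure D4:**
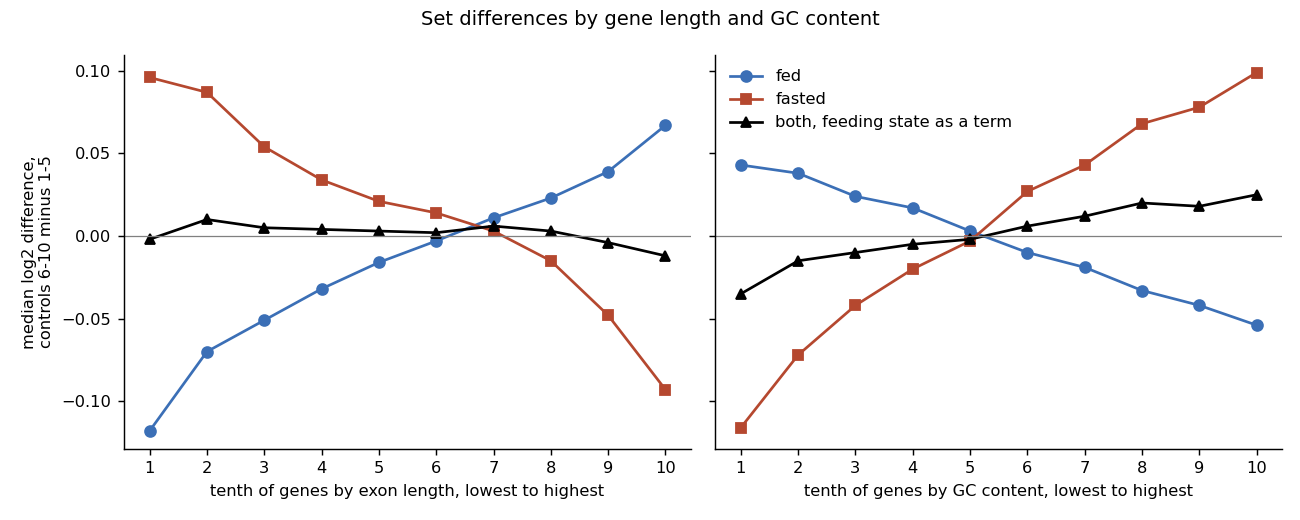
Median log2 difference of 10 equal bins of genes by exon length (left) and GC content (right), in fed mice, in fasted mice and with feeding state as a term. Fed and fasted lines run in opposite directions, from -0.118 to 0.067 and from 0.096 to -0.093 by length, and the line for both states runs from -0.035 to 0.025 by GC content.

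Mature oligodendrocytes, the myelin-forming cells, had marker genes with the same reversal. Of their 13 marker genes 4 were lower and 0 higher in fed mice, 7 were higher and 0 lower in fasted mice, and 7 were higher and 0 lower for the response (median 0.38). With offsets for exon length, for GC content and for both, 7, 9 and 8 were called higher for the response, while between the fasted sets 6 were higher and 2 lower with both offsets. The fed count was 1 without fed 4, 7 or 9, and the fasted count was 4 without fasted 5, 7 or 9. Mog, a surface protein of myelin, was at 94.7, 102, 109, 111 and 95.1 CPM in fed 1 to 5 and at 85.0, 84.6, 85.9, 72.0 and 91.4 in fed 6 to 10. It was at 86.0, 86.7, 83.5, 87.1 and 83.5 in fasted 1 to 5 and at 96.3, 99.4, 101, 98.0 and 96.6 in fasted 6 to 10. The groups were apart in both states and in opposite order. Mog fell by 0.29 ± 0.05 in fed mice (adjusted p = 0.00491) and rose by 0.20 ± 0.05 in fasted mice (adjusted p = 0.00668), and its response differed by 0.49 ± 0.07 (adjusted p = 8.77e-05). These calls of Mog were kept without any 1 library.

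Among the other myelin genes, the response was higher in controls 6 to 10 by 0.50 ± 0.08 for Cnp, 0.51 ± 0.08 for Mag and 0.88 ± 0.18 for Opalin (adjusted p = 0.000277, 0.000302 and 0.00203). Mbp, myelin basic protein, differed by 0.38 ± 0.08 (adjusted p = 0.0046). Of the oligodendrocyte precursor list, Sox10, a factor shared by precursors and mature cells, rose in fasted mice by 0.33 ± 0.06 (adjusted p = 0.00168). Pdgfra and Vcan, which mark precursors, fell there by 0.25 ± 0.05 and 0.35 ± 0.08 (adjusted p = 0.00293 and 0.00396). Of 12 astrocyte markers 0 were higher and 3 lower in fasted mice, beside 5.93% and 6.09% of all genes, and the median was -0.05.

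Receptors for the fast transmitters GABA and glutamate went against the myelin and mitochondrial genes. Of 43 tested, 3 were higher in fed mice, 13 were lower in fasted mice and 18 were lower for the response, with 0 called in the other direction each time. Their medians were 0.13, -0.085 and -0.24. Gabrg1, a GABA-A receptor subunit, was at 64.6, 71.0, 61.9, 65.4 and 73.3 CPM in fed 1 to 5 and at 71.6, 77.6, 79.5, 89.7 and 74.8 in fed 6 to 10. It was at 78.6, 77.2, 76.8, 77.8 and 89.0 in fasted 1 to 5 and at 65.7, 73.0, 72.5, 65.2 and 63.3 in fasted 6 to 10. The fed groups overlapped only through fed 5 and fed 6, and the fasted groups did not overlap. The response of Gabrg1 was lower by 0.46 in controls 6 to 10 (log2 difference -0.46 ± 0.08, adjusted p = 0.000384). Gabrg3 and Gabrb1 had differences of -0.46 ± 0.08 and -0.48 ± 0.09 (adjusted p = 0.00049 and 0.00118). The response count was 17 to 20 without any 1 library, 13 with the length offset and 10 with length and GC offsets, and without fasted 5 the fasted count was 7.

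Splicing factors take part in removing introns from RNA. Of 28 splicing factors 12 were lower and 0 higher in fasted controls 6 to 10 (median -0.12), and 7 were lower for the response. Srsf10, an SR splicing factor, fell by 0.22 ± 0.05 in fasted mice (adjusted p = 0.007). The fasted count was 7 without fasted 5 and 4 with length and GC offsets, and the response count was 2 without fed 9 or fasted 7. The median of the response for this list was -0.10, against 0.02 with those offsets. Of 29 genes for chromatin and long nuclear transcripts, 1 was higher and 1 lower in fed mice, 2 were higher and 4 lower in fasted mice, and 1 was higher and 11 lower for the response. That last count was 5 without fed 7, fed 9 or fasted 7. Over all genes 5.93% were higher and 6.09% lower in fasted mice, and 8.69% and 8.05% for the response. Of 13 proteins encoded in mitochondrial DNA, 0 were above 0 with feeding state as a term (median -0.097), and 0 were called. In fasted mice 8 were lower and 0 higher (median -0.16), opposite to the nuclear subunits of the same chain. With a GC offset 1 was lower, and without fasted 5, 7 or 9 the count was 5. mt-Atp6, an ATP synthase subunit that shares sequence with other genes, was at 7160, 6530, 6930, 6530 and 8430 CPM in fasted 1 to 5. It was at 5950, 5960, 5800, 5630 and 6010 in fasted 6 to 10, without overlap. It fell by 0.28 ± 0.06 (adjusted p = 0.00735), beside a mitochondrial share of counts of 7.27% to 8.70% in fasted 1 to 5 and 6.81% to 7.29% in fasted 6 to 10.

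Microglial genes, of the immune cells of the brain, were called between the fasted sets and not between the fed ones. Of 13 tested, 10 were higher and 0 lower in fasted controls 6 to 10 (median 0.36), 0 were called in fed mice (median 0.04) and 5 were higher for the response. Summed, they stood at 357 ± 16.2 CPM in fed 1 to 5, 360 ± 18.5 in fed 6 to 10, 297 ± 24.4 in fasted 1 to 5 and 359 ± 21.4 in fasted 6 to 10 (mean ± SD, n = 5 each). Fasted 1 to 5 was thus the low group, at 272 to 328, below all libraries of the other 3 groups (334 to 389). C1qc, a chain of complement C1q made by microglia, was at 29.7, 24.3, 21.3, 22.9 and 18.7 CPM in fasted 1 to 5 and at 34.2, 32.4, 32.9, 29.6 and 30.8 in fasted 6 to 10. Only fasted 1 reached the range of fasted 6 to 10. C1qc rose by 0.45 ± 0.11 in fasted mice (adjusted p = 0.0133), and its response differed by 0.74 ± 0.16 (adjusted p = 0.00345).

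Trem2 and Cx3cr1, a lipid receptor and the fractalkine receptor of microglia, rose in fasted mice by 0.40 ± 0.11 and 0.26 ± 0.07 (adjusted p = 0.0195 and 0.0187). Tmem119, a microglial surface protein, rose there by 0.28 ± 0.08 (adjusted p = 0.0186) with a response difference of 0.45 ± 0.11 (adjusted p = 0.00475). The fasted microglial count rested on single libraries, being 1 without fasted 6, 2 without fasted 3, 3 without fasted 5 and 2 without the 3 libraries with high Ttr. Of 5 perivascular macrophage genes tested none was called in any of the comparisons. H2-D1, a classical MHC class I gene that shares sequence with others, was at 43.3 to 52.8 CPM in fasted 1 to 5 and 56.4 to 70.4 in fasted 6 to 10, without overlap. It rose by 0.38 ± 0.06 (adjusted p = 0.000851), and 2 of the 14 antigen presentation genes were called there, beside 12% of all genes. With feeding state as a term 24 of 25 interferon response genes were above 0 (median 0.13), beside 8887 of all 17655 genes, and 0 were called. In fed mice 17 were above 0 (median 0.06), and in fasted mice 23 (median 0.24).

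Of 17 genes induced by glucocorticoids, 0 were above 0 with feeding state as a term (median -0.22, against 0.001 over all genes), and 0 were called. In fasted controls 6 to 10, 7 of them were lower and 0 higher (median -0.32). The 7 became 1 without any one of fasted 3, 5, 6, 7, 8 and 9, 2 without fasted 4, 12 without fasted 10, and 0 without the 3 libraries with high Ttr. In fed mice 0 were called (median -0.25) and for the response 0 (median -0.13), so that a difference of the sets between feeding states was not shown. Cdkn1a, the cell cycle inhibitor p21, was at 63.4, 55.1, 79.2, 70.5 and 67.8 CPM in fasted 1 to 5 and at 18.6, 26.3, 25.4, 17.2 and 73.2 in fasted 6 to 10. Fasted 10, at 73.2, lay with fasted 1 to 5, and the other 4 lay far below them. All 10 fed controls were between 5.84 and 11.3. Cdkn1a fell by 1.07 ± 0.29 in fasted mice (adjusted p = 0.0255). Fkbp5, a chaperone of the glucocorticoid receptor, was at 79.5, 72.8, 85.8, 79.7 and 84.9 in fasted 1 to 5 and at 39.0, 58.9, 55.4, 45.2 and 83.7 in fasted 6 to 10, and it fell by 0.51 ± 0.15 (adjusted p = 0.0321). Arrdc2, an arrestin-like adaptor, was at 53.8 to 66.9 in fasted 1 to 5 and at 39.6, 28.7, 41.4, 31.5 and 67.3 in fasted 6 to 10, and it fell by 0.58 ± 0.17 (adjusted p = 0.037).

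Fasted 10 lay with fasted 1 to 5 for each of these 3 genes and was the highest of fasted 6 to 10 for the sum of the list (1777 CPM, against 1104 as the lowest). Sult1a1, a sulfotransferase induced by glucocorticoids, fell by 0.76 ± 0.18 (adjusted p = 0.0128) and was the member whose call was kept without any 1 library among those named here.

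Some feeding and stress peptides of the hypothalamus differed between the fasted sets, in both directions. Of 25 peptide genes tested, 4 were lower and 2 higher in fasted mice (median -0.03), 1 was lower in fed mice, and 2 were higher and 1 lower for the response. Over all genes 6.09% were lower and 5.93% higher in fasted mice, and 1.15% were lower in fed mice. For the response 8.69% of all genes were higher and 8.05% lower, so the peptides were not called more often there. Crh, the releasing hormone that starts the stress axis, was at 5.95, 5.57, 7.02, 4.64 and 3.04 CPM in fasted 1 to 5 and at 2.24, 3.66, 4.02, 2.75 and 3.42 in fasted 6 to 10. Only fasted 5, at 3.04, lay within the range of fasted 6 to 10. Crh fell by 0.71 ± 0.18 in fasted mice (adjusted p = 0.0114), and its response difference was -0.89 ± 0.26 (adjusted p = 0.0189, and 0.0514 without fed 9). Agrp, the appetite-driving peptide, was at 5.50, 3.51, 6.32, 5.59 and 5.92 in fasted 1 to 5 and at 3.73, 2.72, 3.34, 2.75 and 5.16 in fasted 6 to 10. The groups overlapped, with fasted 2 low among 1 to 5 and fasted 10 high among 6 to 10. Agrp fell by 0.61 ± 0.18 (adjusted p = 0.022), a gene whose exons overlap another gene, and the call was lost without fasted 3, 5, 7 or 9.

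Npy, the partner peptide of Agrp neurons, fell by 0.36 ± 0.10 in fasted mice (adjusted p = 0.0183), at 10.9 to 17.2 CPM in 1 to 5 and 9.47 to 13 in 6 to 10. That call was lost without fasted 1 or fasted 7. Cartpt, an appetite-suppressing peptide, had a reversal like that of the myelin genes. It was at 58.9, 48.8, 53.8, 48.0 and 49.2 CPM in fed 1 to 5 and at 35, 40.0, 38.3, 32.7 and 44.7 in fed 6 to 10, without overlap. In fasted mice it was at 44.2, 38, 37.4, 38 and 28.5 in 1 to 5 and at 46.5, 43.1, 42, 52.8 and 55.9 in 6 to 10, with fasted 1 inside the range of 6 to 10. Cartpt fell by 0.44 ± 0.11 in fed mice (adjusted p = 0.046), rose by 0.37 ± 0.11 in fasted mice (adjusted p = 0.0358) and differed in response by 0.81 ± 0.15 (adjusted p = 0.00225). The fed call was lost without any one of 14 libraries (adjusted p up to 0.175, without fed 9) and the fasted call without any one of 7 (up to 0.0998, without fasted 9), whereas the response call was kept. Pomc, the precursor of melanocortins, differed by 0.38 ± 0.17 in fasted mice and was not called (adjusted p = 0.161).

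Sim1 and Otp, transcription factors of the paraventricular nucleus where Crh neurons lie, were the 2 of 25 regional factors called in fasted mice and for the response, shares below those of all genes (12% and 16.7%). Sim1 was at 9.21, 7.89, 7.78, 10.0 and 9.66 CPM in fasted 1 to 5 and at 8.04, 4.92, 6.53, 6.08 and 5.37 in fasted 6 to 10, with only fasted 6 reaching the range of 1 to 5. Sim1 fell by 0.53 ± 0.12 in fasted mice (adjusted p = 0.00372) and its response difference was -0.73 ± 0.16 (adjusted p = 0.0025). Otp fell by 0.36 ± 0.09 (adjusted p = 0.0144), with a response difference of -0.59 ± 0.13 (adjusted p = 0.0034). Both calls of Sim1 and Otp were kept without any 1 library.

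**Figure D5:**
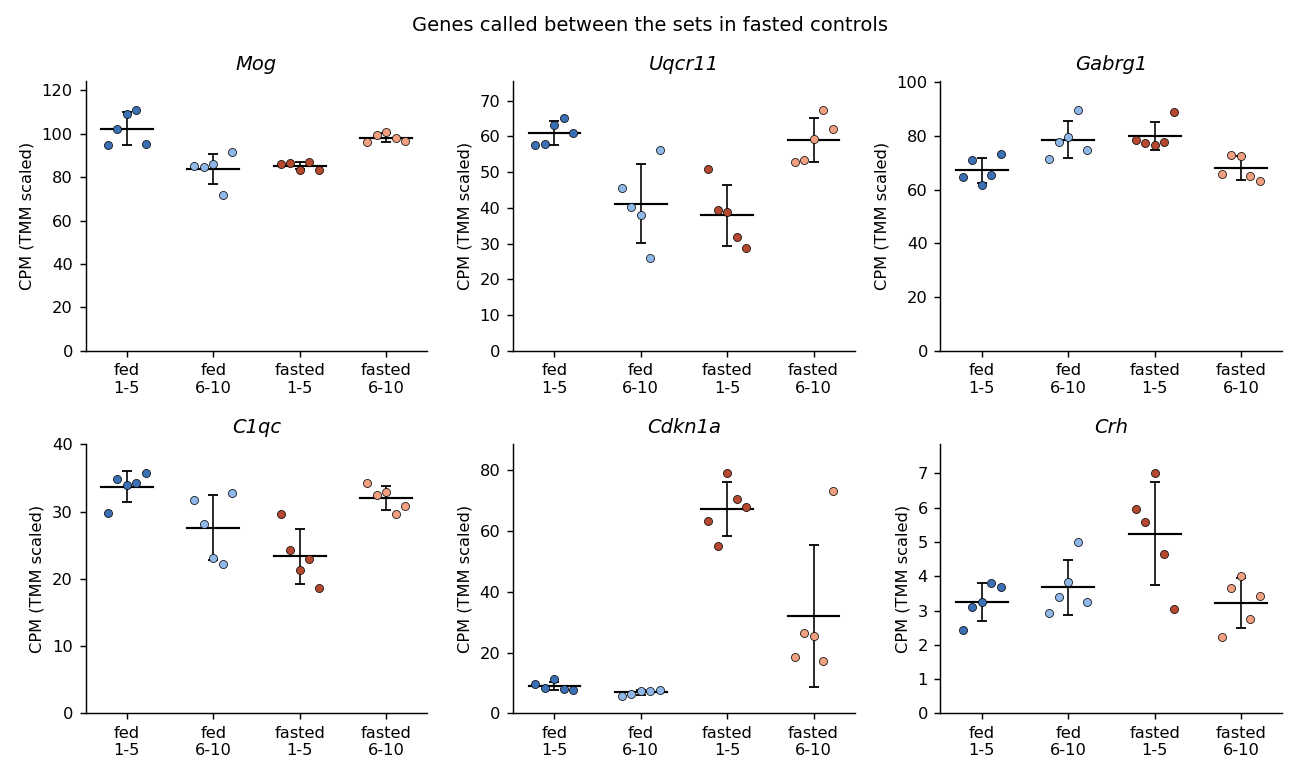
CPM of 6 genes called in fasted controls, by control group. Points are libraries, the line is the mean of 5 and the bar is 1 SD. Mog and Uqcr11 are lower in fed and higher in fasted controls 6 to 10, Gabrg1 the reverse, and 1 of the fasted 6 to 10 lies with fasted 1 to 5 for Cdkn1a.

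Genes that mark other brain regions were counted as well, and their part in the other results was not tested. Over all genes 0.929% were higher and 1.15% lower in fed mice, and 5.93% and 6.09% in fasted mice. For the response these shares were 8.69% and 8.05%, and the regional lists are short, so single calls in them are little apart from these shares in fasted mice. Of 13 thalamus and habenula genes 2 were higher in fed mice (0 without fed 4, 7 or 9) and 3 in fasted mice. Of 10 cortex and hippocampus genes 1 was higher and 1 lower in each feeding state. Of 9 striatal markers, 2 were higher in fed mice and 4 lower for the response. The fed striatal count was 0 without any one of fed 2, 3, 4, 5, 6, 7 and 9. Slc6a3, the dopamine transporter of midbrain neurons, was at 76.9, 66.1, 115, 99.6 and 65.4 in fed 1 to 5 and at 40.6, 36.9, 61.0, 25.8 and 34.2 in fed 6 to 10. The groups did not overlap, but the difference of -1.08 ± 0.28 missed the threshold (adjusted p = 0.0538). Of 6 midbrain dopamine and monoamine genes tested 0 were called in fed mice, and all 6 were below 0 (median -0.63). Chrnb3, a nicotinic receptor subunit of midbrain dopamine neurons, fell by 1.19 in fed mice (adjusted p = 0.0236, and 0.0882 without fed 9).

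Of 13 choroid plexus genes tested 0 were called in any comparison, although all 13 were below 0 in fed mice and above 0 in fasted mice (medians -0.91 and 2.335), their summed level being 31.4 to 1008 CPM in fed 1 to 5, 32.3 to 131.9 in fed 6 to 10, 30.9 to 222 in fasted 1 to 5 and 35.4 to 1619 in fasted 6 to 10. Without the 3 libraries with high Ttr, 0 genes were called with feeding state as a term (1110 had an unadjusted p under 0.05), 165 in fed mice, 758 in fasted mice and 2288 for the response, and the respiratory chain genes higher for the response were 42 of 82 tested, the ribosomal proteins 32 of 86 and the oligodendrocyte genes 5 of 13.

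The largest called differences within a feeding state were in genes of low level or of other regions. In fed mice Ccdc15 rose by 0.78 and Ddx4 by 0.76, and Neurod6, a factor of cortical neurons, fell by 1.35 with fed 2 at 4.90 CPM and all other controls at 0.537 to 1.57. Without fed 2 Neurod6 was not called (adjusted p = 0.171). Gm24187 fell by 1.27. The fed calls of Ccdc15 and Ddx4 were each lost without any one of 8 libraries. The number was 7 for Neurod6 and 12 for Gm24187. In fasted mice Slc16a8, a lactate transporter, rose by 1.36, Gm10408 by 1.09 and Gm45426 by 1.04. The call of Slc16a8 was lost without fasted 4, 5, 8 or 9, that of Gm45426 without fasted 4, 5 or 8, and that of Gm10408 without fasted 5. Gm17081 fell by 1.46, Gm5859 by 1.31 and Gm10600 by 1.28. These falling genes are neighbours in the chromosome 4 stretch between Galt and Fam205c, so they are not separate measurements. They and Gm10408 share sequence with other genes. The largest response differences were 3.23 for Gm5741, 2.06 for Rln3, the brainstem peptide relaxin-3, and 2.04 for Clec18a. In the other direction they were -1.27 for mt-Tl2, -1.24 for Gm37773 and -1.22 for Tmem79, whose exons overlap another gene. On the Y chromosome, Ddx3y fell in fasted mice by 0.28 ± 0.05 (adjusted p = 0.00194), at 82.3 to 102 CPM in 1 to 5 and 64.6 to 79.4 in 6 to 10.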

How the data were processed

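Hypothalamic polyA RNA was sequenced by the authors as paired 150-base reads per the labels' protocols. The values are raw counts per gene name, deposited by the authors and not normalized. Per the file headers they were made with featureCounts 2.0.1 on GENCODE vM12 (mm10), counting read pairs with no strand option and every alignment of multi-mapping reads, so copies of a gene share reads. STAR 2.7.10b is named in the submitters' processing notes. Rows without a gene name numbered 0. Members and gene lists were chosen with earlier results of these data known.

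Genes were kept by edgeR's filterByExpr (minimum count 10), scaled by TMM and tested in edgeR 4.0.16 (R 4.3.3) with robust quasi-likelihood F-tests over the 20 control libraries: set with feeding state as a term, and the difference within each state and between states from 4 group means. CPM used TMM-scaled library sizes. The biological coefficient of variation was 0.0828 and 0.0701 in the 2 fits. P-values measure the spread between libraries, since the labels do not say how mice were sampled. No pair of libraries within a group was alike within sampling noise (lowest chi-square per gene 2.53 of 40 pairs).

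Genes were named by rule: the 10 strongest rises and 10 strongest falls among called genes at a mean of at least 1 CPM, up to 4 called members of each list with at least 2, and the 3 largest each way within and between states. Others, among them the genes at separate levels and further list members, were chosen after their values were seen. Some genes that met these rules are not reported here. A gene shares sequence with others where at least 10% of its exon bases lie in another gene of the authors' tables, or 10% of its 50-base words in transcripts of another GENCODE M21 gene. Alternatives were scaling, filters, tools (limma-voom in limma 3.58.1, DESeq2 1.42.0), a replicate block, all 35 libraries, each library left out, offsets for exon length and GC content, and leaving out high-Ttr libraries. In data simulated for the comparison of sets over 17655 genes, 55.2% of differences of 0.25 and 92.5% of those of 0.5 were called. For the response the shares were 7.46% and 62.7%. Every simulated gene had the same biological coefficient of variation. Apart from the added differences, fed and fasted means were equal and there was no trend with length or GC content. The real data differed in these points, so the shares do not give the power of the real comparisons.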

Additional observations from a re-analysis of the deposited data

Results flagged for a closer look

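Values were checked for a library far from the other 4 of its group, in 200 groups of 5, where chance alone marks about 1 in 20 groups, and 15 were found. Among the genes of the comparison of sets these were Nrip3 in fed 6 (271 CPM, the highest of its group), P2ry12 in fed 2 (17.4, the lowest), Ednrb in fasted 10 (58.8, the lowest), A730020M07Rik in fasted 1 (3.15, the lowest) and Btaf1 in fasted 5 (45.2, the highest). Gabra2 in fed 5 was at 41.7 and Ide in fasted 10 at 61.4, both the highest of their groups. Fasted 10 was also the highest of its group for Cdkn1a (73.2 CPM), for the summed glucocorticoid-induced genes (1777 CPM) and for the mitochondrial share of counts (7.287%). Gabrg1 in fasted 5 was at 89 and Fkbp5 in fed 6 at 37.8 CPM. Ttr stood out in fed 2 (892 CPM) and in fasted 5 (174 CPM). The total count of fasted 9 was 22036714, the highest of the controls.

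The response to fasting differed between the sets for 2956 genes by the test of the difference itself (edgeR, adjusted p under 0.05). Among the 41 genes examined library by library, 17 were called. The difference was positive, so that the fasted minus fed change was higher in controls 6 to 10, for Uqcr11 (1.2), Opalin (0.88), Cartpt (0.81), C1qc (0.74), Ndufb11 (0.61), Cnp (0.5), Mog (0.49), Rps9 (0.46) and H2-D1 (0.44). It was negative for Crh (-0.89), Sim1 (-0.73), Gabrg1 (-0.46), Gabrg3 (-0.46), Gm21685 (-0.43), Entpd4 (-0.4), Ddx3y (-0.35) and mt-Atp6 (-0.32).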

How the results depend on the processing

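Counts of called genes are given in the order sets with feeding state as a term, fed, fasted and response, beside 32, 367, 2122 and 2956. They were 0, 0, 1088 and 1918 with all 35 libraries in the fit, 4, 19, 127 and 371 with a fold above 1.5 as well, and 88, 762, 2471 and 3322 with DESeq2. With all 35 libraries the first count is of the mean of the fed and fasted differences, which was 69 with the 20 controls alone. Of alternatives chosen after seeing the data, the exon length offset gave 37, 143, 1596 and 1976, the GC offset 52, 485, 1372 and 2344, both offsets 54, 234, 1130 and 1607, and leaving out the 3 libraries with Ttr above 500 CPM 0, 165, 758 and 2288. Without a filter on low counts 875 genes were called in fed mice, and the mean of both feeding states gave 69. Leaving out 1 library gave 0 to 103, 3 to 879, 943 to 2468 and 2126 to 3259. Title numbers did not pair libraries (correlations of same-numbered deviations -0.086 to 0.041, 0 of 10 over 0.1, 1 of 10 best with its own number). With the number as a replicate block limma-voom gave 116, 416 and 2157 for the first 3, against 39, 400 and 2140 without it, and edgeR gave 2255 for the response. Of the named genes called, all kept their direction in every alternative run, and 0 of 25, 0 of 27, 5 of 79 and 10 of 62 kept their call in every one. Depth was similar between libraries. In the simulation, with the same coefficient of variation for every gene, 55.2% of differences of 0.25 between sets, and 7.46% in the response, were called.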
